A study of Homo sapiens with 7 samples.

Results

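The histone genes of the deposited table were examined in 7 RNA libraries of HUDEP-2, an established human cell line of immortalised red cell precursors. Members were all rows whose symbol began with HIST1H, HIST2H, HIST3H, HIST4H, H1F, H2AF or H3F3, a rule that uses no measured value. It took 88 of 32738 genes: 71 clustered genes with the HIST prefix and 17 rows with the other prefixes, called replacement variants here. One of the 17, H1FX-AS1, is a noncoding antisense RNA. Every library came from cells carrying a lentiviral CRISPR interference construct. In this method a guide RNA leads a catalytically dead Cas9, usually fused to a repressor, to DNA. The cells had first been grown with stem cell factor, erythropoietin, dexamethasone and doxycycline. After infection they spent 72 h in medium for erythroid differentiation that held plasma, serum, transferrin, heparin, insulin and 3 IU/ml erythropoietin. The 3 control libraries carried a non-targeting guide, 2 libraries carried guide 1 and 2 carried guide 2. Both of the latter guides point at an enhancer of TMCC2, per the labels. Nothing in the labels states that replicates came from separate cultures. The p-values therefore measure only how far these libraries spread, and that spread may be technical. Whether the line was a single clone is not given in the sources used here.

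Histones package DNA. A pair each of H2A, H2B, H3 and H4 molecules forms the core of the nucleosome, and linker histone H1 binds where DNA enters and leaves it. The clustered genes are transcribed mainly during DNA replication, and most of their messages end in a conserved stem-loop in place of a poly(A) tail. Stem-loop binding protein, the product of SLBP, holds that stem-loop through processing, export and translation. Replacement variants are mostly made throughout the cell cycle from ordinary polyadenylated messages. In maturing red cell precursors the nucleus condenses before it is expelled, and histones are partly released from chromatin. Smart-seq2, the library chemistry used here, primes cDNA on poly(A) tails, so it should catch only those clustered histone messages that carry one. Poly(A) status itself was not measured.

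The stem-loop was looked for first, since it marks most messages of the clustered genes. The 16-letter pattern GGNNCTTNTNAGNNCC was searched on the sense strand of the GENCODE v29 transcripts. It was present in 33 of the 88 members and in 185 of all 57133 gene names, or 0.324%. The 33 were 32 clustered genes and H2AFX, a replacement variant by the rule, so the stem-loop does not fully separate the 2 classes. One example of each of the 7 spellings found is shown with 5 flanking bases on each side and the pattern in capitals.
HIST1H2AC: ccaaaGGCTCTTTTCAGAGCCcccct
HIST1H2BD: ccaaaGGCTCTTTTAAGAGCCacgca
HIST1H4H: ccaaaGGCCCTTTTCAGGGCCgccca
HIST1H4I: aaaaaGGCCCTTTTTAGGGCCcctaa
HIST1H3E: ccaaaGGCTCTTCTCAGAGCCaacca
HIST1H2AG: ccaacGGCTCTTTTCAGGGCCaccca
H2AFX: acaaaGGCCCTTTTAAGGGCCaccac
The first spelling was carried by 17 members, all of them H2A, H2B or H3 genes. The 2 spellings shown for HIST1H4H and HIST1H4I were carried by 5 and 3 members, and each of these was an H4 gene. The spelling of HIST1H2BD was found in 5 members and the others in 1 each. Of the 39 clustered genes with no match, 34 have models that hold only the coding sequence, so this search could not see the end of their messages. In 23 clustered genes a model ran at least 100 bases past the stem-loop, and 23 had a model with a poly(A) signal, AATAAA or ATTAAA, in its last 40 bases.

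Depth and identity were checked next. Library totals ran from 9780800 to 11350113 counts. TMCC2 stood between 832 and 937 CPM (counts per 1000000 counts of the library, scaled by TMM, a normalisation that trims extreme genes) with the non-targeting guide and between 219 and 260 CPM with the other guides. The 8 red cell markers summed to 236910 to 273800 CPM in the 7 libraries. Neutrophil and monocyte markers summed to at most 2.62 CPM, lymphocyte markers to at most 1.12 CPM and markers of fibroblasts and endothelium to at most 0.276 CPM. Megakaryocyte markers summed to 176 to 213 CPM, but of these 6 markers 2 had no counts in any library and only 2 were abundant enough to test. Non-targeting replicate 1 stood apart from the rest: it held the highest or lowest of the 7 values in 56.6% of all genes tested.

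Histone RNA was led by a few clustered genes. All 88 members together took 0.176% to 0.186% of the counts in each library, and 69.6% of those member counts were from clustered genes. HIST1H1C, which encodes the linker histone H1.2, held 35.9% of clustered counts. HIST1H2AC held 23.9%, HIST1H2BK 8.71%, HIST1H3H 7.30% and HIST3H2A 4.61%. A list of 7 clustered genes known to make polyadenylated messages as well (HIST1H1C, HIST1H2AC, HIST1H2BC, HIST1H2BD, HIST1H2BJ, HIST1H2BK and HIST2H2BE) held 76.4%. The other 64 clustered genes held 23.6%. HIST1H3H and HIST3H2A were the most abundant of these, and the 62 genes left without them held 11.7%. Per kilobase of the longest coding model, HIST1H1C had the highest level, 705 CPM, followed by HIST1H2BK at 288, HIST1H2AC at 182 and H3F3B at 108. For HIST1H1C and HIST1H2BK that length is the coding length. H2AFJ followed at 95.4 CPM per kilobase, then HIST1H3H at 74.6, HIST3H2A at 65.0 and H2AFZ at 60.8.

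Most of the clustered genes were scarce. Their median level was 1.07 CPM, and 18 of 71 reached 5 CPM. The 23 clustered genes with a poly(A) signal had a median of 3.07 CPM, against 0.941 CPM for the other 48, as a description with no test. Those 48 include the 34 genes whose models hold only the coding sequence, where a signal could not be seen. HIST1H1C and HIST1H2BK, both on the polyadenylated list, are among them. The 48 are therefore not a set of genes shown to lack a signal. Of the 88 members, 52 were abundant enough to test: 43 of 71 clustered genes and 9 of 17 replacement variants. Among the clustered genes these were 4 of 6 H1 genes, 9 of 17 H2A, 13 of 18 H2B, 9 of 15 H3 and 8 of 15 H4. A further 31 members had under 10 counts in every library. The remaining 5, HIST1H2BL, HIST1H2AL, HIST1H3F, HIST1H2AJ and HIST1H2BE, reached 10 counts in a library and were not tested. Counts were 0 in all 7 libraries for 13 members, which allows up to 0.0406 CPM over the 7 libraries (3 counts, counting error only). That bound does not apply to members whose sequence is largely shared with another gene, described below.

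**Figure D1:**
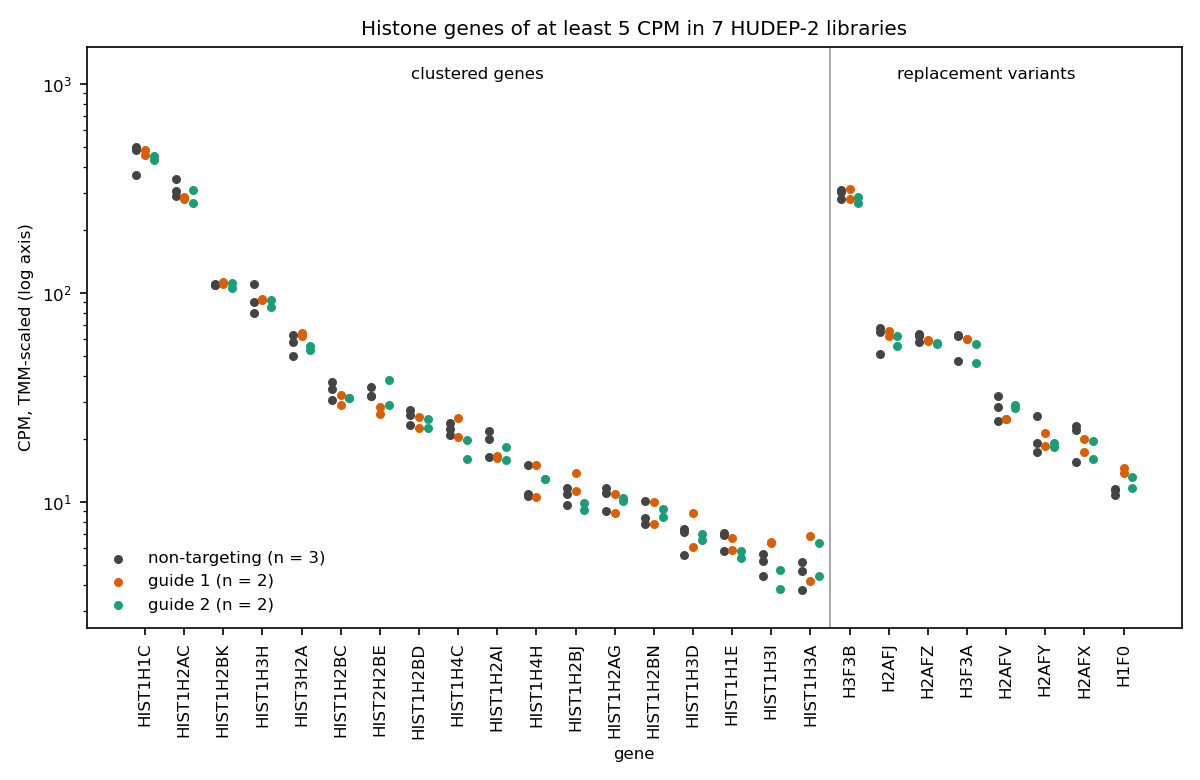
CPM of the 26 histone genes of at least 5 CPM (log axis), 1 point per library: 3 non-targeting, 2 guide 1 and 2 guide 2 libraries. HIST1H1C lies at 367 to 501 CPM and H3F3B at 269 to 312 CPM, and the 4 guide libraries overlap the 3 controls in every gene shown except H1F0.

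Some members share much of their sequence with another gene, either a copy or a different gene whose model overlaps. For each gene the share of 50-base windows of its model found in no other gene's transcripts was computed (both strands). It was under 10% in 11 clustered genes and at least 90% in 49. A low share does not always mean a copy. HIST1H2AK, an H2A gene with a share of 0, has all its windows in models of HIST1H2BN, an H2B gene on the opposite strand. Chromosome 1 carries pairs of near-identical genes: HIST2H2AA3 and HIST2H2AA4 had 1 count each, and HIST2H3A, HIST2H3C, HIST2H4A and HIST2H4B had 0. Their shares of unique windows were 0, 2.91%, 0, 0, 0 and 4.89% in that order. H2AFB1, H2AFB2 and H2AFB3, which are copies of each other, were also at 0 in every library, with shares of 9.29%, 0 and 0.738%. HIST1H2AD was at 0 too, with a share of 2.03%. How reads that align to several places were treated is not given in the sources used here, so a 0 for these genes does not show that they were silent. Low shares did not always go with low counts. HIST1H2BK had 25.9% unique windows and 8087 counts, and HIST1H3D had 0 and 511 counts, with all its windows also in the noncoding gene model AL031777.3. Conversely, HIST1H1A, HIST1H2BA and HIST1H4G had shares of 100% and 0 counts.

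**Figure D2:**
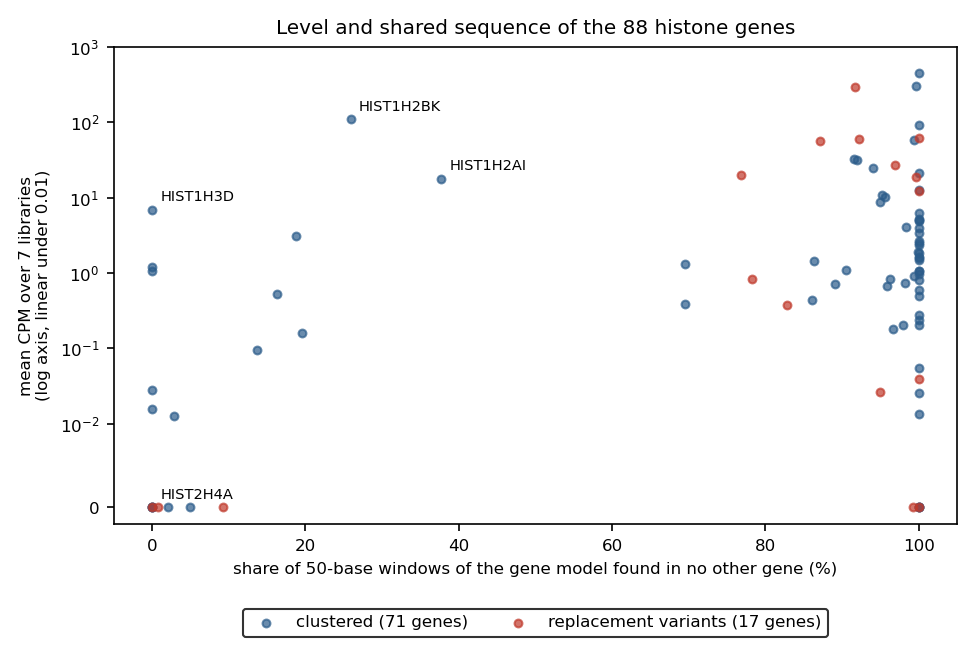
Mean CPM over 7 libraries (log axis, linear under 0.01) against the share of 50-base windows found in no other gene, for 71 clustered genes and 17 replacement variants. The paired chromosome 1 gene HIST2H4A lies at 0 CPM and 0%, while HIST1H2BK lies at 110 CPM and 25.9%.

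The main comparison asked whether repressing the TMCC2 enhancer moved histone RNA, with both guides set against the non-targeting guide. None of the 52 tested members was called by edgeR's quasi-likelihood test at an adjusted p under 0.05, and the smallest adjusted p was 0.998. At an unadjusted p under 0.05 the count was also 0 of 52. Over all 10212 genes tested, edgeR called 0.0196%, and 4.19% had an unadjusted p under 0.05. DESeq2 called 0 members as well, beside 0.0392% of all genes. By DESeq2, 0 members had an unadjusted p under 0.05, beside 260 of the 10212 genes. The log2 fold changes of the 52 had a median of -0.03, against -0.01 over all genes, and 24 of 52 were positive, or 46.2%, against 46.1%. In these bulk libraries fewer cells in a phase of the cell cycle and less histone RNA per cell cannot be told apart.

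The precision of these values differed by level. For the 9 members of 50 CPM and more, the log2 fold changes lay between -0.14 and 0.05, and the 95% intervals reached from -0.35 to 0.28 at the outermost. For the 17 members of 5 to 50 CPM the outermost bounds were -0.53 and 0.76. Of the 26 members under 5 CPM, 15 had intervals within 1 on the log2 scale in either direction, and the others did not exclude a change of that size.

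**Figure D3:**
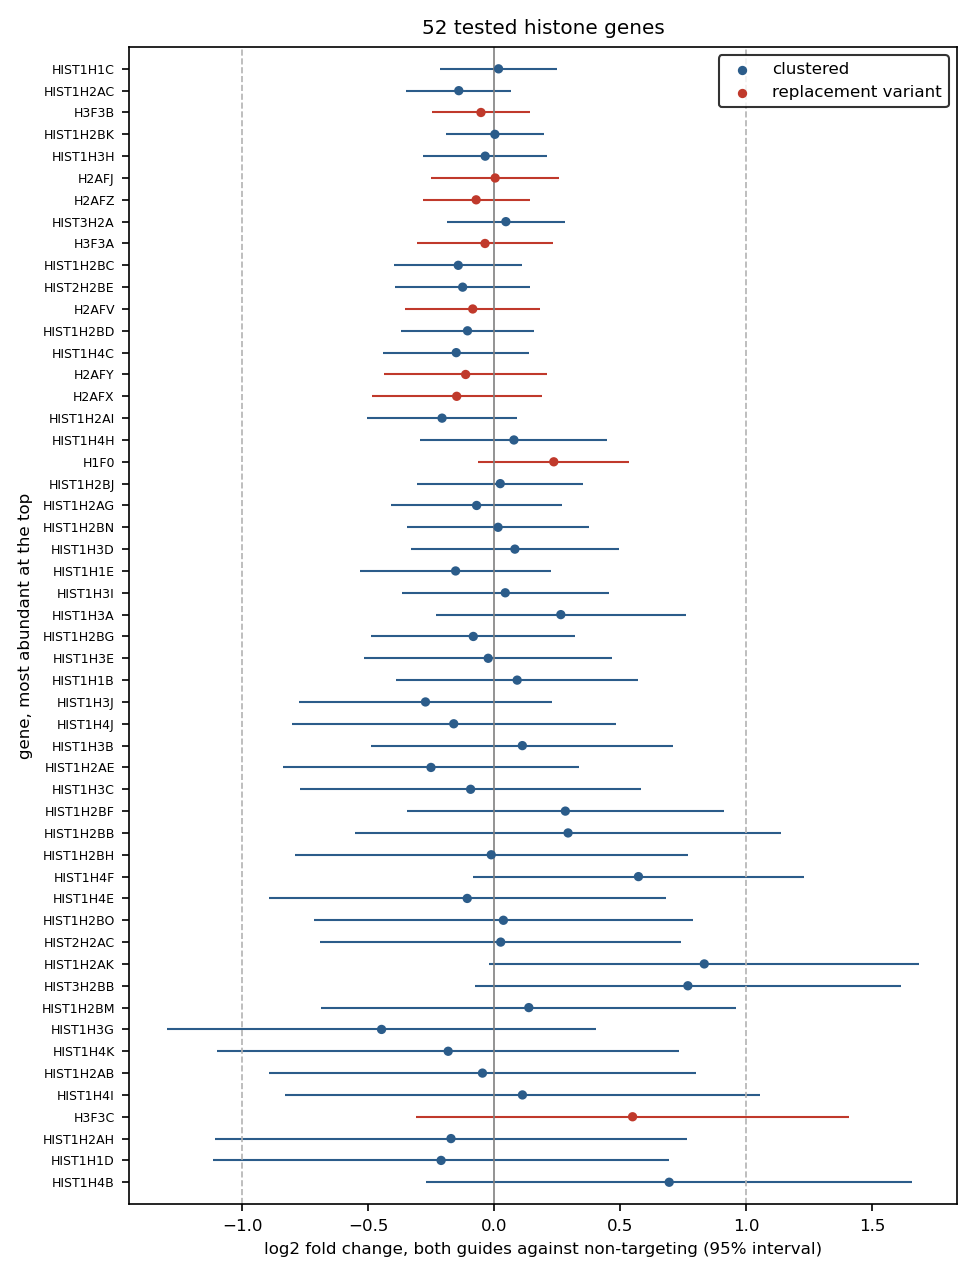
Log2 fold changes of the 52 tested histone genes, both guides against non-targeting (horizontal axis), with 95% intervals from the edgeR fit, ordered by abundance. Dashed lines mark -1 and 1. Every interval includes 0, and they widen towards the scarce genes at the bottom.

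The linker histone genes include the most abundant member, HIST1H1C. HIST1H1C stood at 367, 480 and 501 CPM with the non-targeting guide, at 456 and 482 CPM with guide 1 and at 450 and 432 CPM with guide 2. Non-targeting replicate 1 was the lowest of the 7 and the groups overlapped. The log2 fold change was 0.02 (SE 0.11, 95% interval -0.21 to 0.25, adjusted p = 0.998, edgeR). Without non-targeting replicate 1 it was -0.11 and was not called (adjusted p = 0.523, edgeR). HIST1H1E, which encodes H1.4, differed by -0.15 (SE 0.18) from 6.62 ± 0.694 CPM (SD, n = 3) and was not called.

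H1F0, the replacement linker histone H1.0 that accumulates in many differentiating cells, stood at 10.8, 11.5 and 11.4 CPM in the non-targeting libraries. It stood at 13.7 and 14.6 CPM with guide 1 and at 13.1 and 11.7 CPM with guide 2. All 4 guide libraries were above all 3 controls. The log2 fold change was 0.24 (SE 0.14, 95% interval -0.06 to 0.54), and it did not pass (adjusted p = 0.998, edgeR). Such separation was seen in 4 of 52 members upward (H1F0, HIST1H4F, H3F3C and HIST1H4B) and 0 downward, against 3.03% and 2.37% of all genes tested.

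Core H2A genes were led by HIST1H2AC. It stood at 352, 292 and 309 CPM in the non-targeting libraries, at 287 and 282 CPM with guide 1 and at 270 and 311 CPM with guide 2. Non-targeting replicate 1 was here the highest of the 7. The log2 fold change was -0.14 (SE 0.10, 95% interval -0.35 to 0.07, adjusted p = 0.998, edgeR), and -0.06 without that library (adjusted p = 0.806). HIST3H2A, from the small cluster that is also on chromosome 1, stood at 49.9, 58.2 and 62.9 CPM in the controls, at 64.5 and 62.2 CPM with guide 1 and at 53.3 and 55.9 CPM with guide 2. Guide 2 lay within the range of the controls and 1 guide 1 library lay above it, and the log2 fold change for both guides was 0.05 (SE 0.11). HIST1H2AI differed by -0.21 (SE 0.14) from 19.4 ± 2.71 CPM (SD, n = 3), and 62.3% of its windows also occur in HIST1H2AJ, so its counts are uncertain. HIST1H2AG differed by -0.07 (SE 0.16).

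Core H2B genes were led by HIST1H2BK. It stood at 109, 109 and 110 CPM in the controls, at 113 and 110 CPM with guide 1 and at 105 and 111 CPM with guide 2. Its coefficient of variation over the 7 libraries was 2.13%, against 14.2% for HIST1H2BJ and 13.2% for HIST2H2BE, and its log2 fold change was 0.00 (SE 0.09, 95% interval -0.19 to 0.20). HIST1H2BC differed by -0.14 (SE 0.12), HIST1H2BD by -0.11 (SE 0.12), HIST1H2BJ by 0.02 (SE 0.15) and HIST1H2BN by 0.02 (SE 0.17). HIST2H2BE stood at 32.2, 32.1 and 35.3 CPM in the controls, at 26.3 and 28.4 CPM with guide 1 and at 29.2 and 38.4 CPM with guide 2. Both guide 1 libraries were below every control, while guide 2 lay on both sides of them. The log2 fold change for both guides was -0.13 (SE 0.13), and it was -0.28 for guide 1 alone, neither of them called.

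Clustered genes of H3 and H4 were less abundant in sum than clustered genes of the other classes. HIST1H3H stood at 80.1, 90.3 and 110 CPM in the controls, at 93.6 and 92.9 CPM with guide 1 and at 85.7 and 92.9 CPM with guide 2. All 4 guide libraries lay within the range of the controls, and the log2 fold change was -0.04 (SE 0.11). HIST1H3D differed by 0.08 (SE 0.19), HIST1H3I by 0.04 (SE 0.19) and HIST1H3A by 0.26 (SE 0.23), each from a control level under 7 CPM. HIST1H4C stood at 20.9, 24.0 and 22.4 CPM in the controls, at 20.5 and 25.1 CPM with guide 1 and at 19.7 and 16.05 CPM with guide 2. Its 2 guide 2 libraries were the lowest of the 7, and its log2 fold change for both guides was -0.15 (SE 0.13). HIST1H4H differed by 0.08 (SE 0.17).

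The replacement variants of H3 and H2A followed. H3F3A and H3F3B both encode H3.3, which is placed into chromatin outside replication. H3F3B stood at 310, 303 and 282 CPM in the controls, at 280 and 312 CPM with guide 1 and at 288 and 269 CPM with guide 2. The groups overlapped, and the log2 fold change was -0.05 (SE 0.09, 95% interval -0.25 to 0.14). H3F3A stood at 47.2, 62.1 and 62.6 CPM in the controls, at 60.3 and 60.1 CPM with guide 1 and at 57.1 and 46.3 CPM with guide 2. Its log2 fold change was -0.04 (SE 0.13), and 12.9% of its windows occur in the related model H3F3AP4.

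H2AFZ, which encodes H2A.Z, a variant found beside promoters, stood at 63.6, 62.1 and 58.1 CPM in the controls, at 58.7 and 59.8 CPM with guide 1 and at 57.7 and 57.0 CPM with guide 2. Its log2 fold change was -0.07 (SE 0.10). H2AFV, the gene of the second H2A.Z protein, differed by -0.09 (SE 0.13), and H2AFJ by 0.00 (SE 0.12). H2AFX, whose product is phosphorylated at DNA breaks, differed by -0.15 (SE 0.16) from 20.2 ± 4.06 CPM (SD, n = 3). H2AFY, the gene of macroH2A1, stood at 25.9, 19.2 and 17.3 CPM in the controls, at 21.3 and 18.4 CPM with guide 1 and at 18.3 and 19.2 CPM with guide 2. Non-targeting replicate 1 was the highest, and the log2 fold change of -0.11 (SE 0.15) was 0.07 without it. It was not called in either fit.

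The largest differences were among scarce genes. HIST1H2AK had 6, 14 and 6 counts in the controls, 14 and 19 with guide 1 and 17 and 12 with guide 2. Its log2 fold change was 0.83 (SE 0.40, 95% interval -0.02 to 1.69), and all its windows also occur in models of HIST1H2BN. HIST3H2BB differed by 0.77 (SE 0.40) with counts of 12, 7 and 6 in the controls, 15 and 16 with guide 1 and 17 and 9 with guide 2. HIST1H4F had 14, 13 and 12 counts in the controls, 22 and 22 with guide 1 and 15 and 19 with guide 2, a log2 fold change of 0.57 (SE 0.31). HIST1H4B differed by 0.69 (SE 0.45) with at most 11 counts in a library, and H3F3C, the gene of H3.5, by 0.55 (SE 0.40) with at most 11. None of these 5 passed.

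Summed levels showed how the classes held together. As CPM of total counts, the clustered genes summed to 1269, 1256 and 1291 in the controls, 1227 and 1254 with guide 1 and 1232 and 1275 with guide 2. On average the guide libraries were below the controls, with a difference of -25.3 CPM, which is -1.99% of the control mean. The pooled within-group SD was 21.8 CPM, and no test was made. Without non-targeting replicate 3 the difference was -15.7 CPM, and on the TMM scale it was -33.4 CPM beside a pooled SD of 60.7 CPM. The groups overlapped. Replacement variants summed to 592, 563 and 519 in the controls, 531 and 563 with guide 1 and 557 and 519 with guide 2, also overlapping. Their guide mean differed by -15.2 CPM (pooled SD 31.5 CPM), by 1.96 CPM without non-targeting replicate 1 and by -34.8 CPM without non-targeting replicate 3. The 64 clustered genes outside the polyadenylated list summed to 284 to 313 CPM in the 7 libraries. Without HIST1H3H and HIST3H2A, the most abundant of them, the other 62 summed to 138 to 152 CPM. Within non-targeting replicate 1, summed clustered H1 was the lowest of the 7, at 402 CPM against 453 to 487 CPM elsewhere. Summed clustered H2A was the highest there, at 465 CPM against 367 to 414 CPM. That library held the highest or lowest value in 34.6% of the tested members, against 56.6% of all genes tested. Non-targeting replicate 3 did so in 34.6% of members as well, and guide 2 replicate 2 in 38.5%, being the lowest in 16 of 52.

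**Figure D4:**
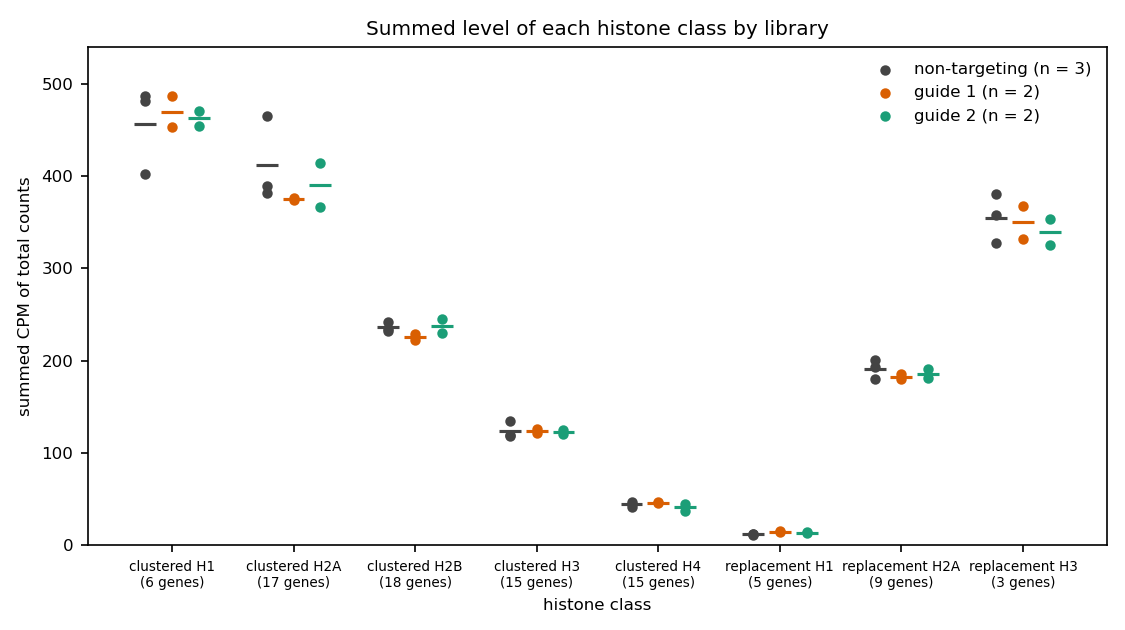
Summed CPM of total counts for 8 histone classes by library; each point is a library of the non-targeting (3), guide 1 (2) or guide 2 (2) group, and short lines are group means. Non-targeting replicate 1 is the low point in clustered H1 (402 CPM) and the high point in clustered H2A (465 CPM).

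Each guide was then set against the non-targeting libraries, which the comparisons share. With guide 1, 0 of 52 members were called by edgeR (smallest adjusted p = 0.877), beside 0.0294% of all genes. DESeq2 called 0 as well, beside 0.0588% of all genes. At an unadjusted p under 0.05 by edgeR there was 1 member, HIST1H4F, at 0.77, beside 4.78% of all genes. With guide 2, 0 of 52 were called by edgeR (smallest adjusted p = 0.999), beside 0.00979% of all genes. By DESeq2 0 were called, beside 0.0294% of all genes. None had an unadjusted p under 0.05 by edgeR, beside 2.75% of all genes. The medians were 0.00 with guide 1 and -0.05 with guide 2, against -0.01 and -0.02 over all genes.

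The guides were also compared directly. No member differed by edgeR (smallest adjusted p = 0.983) or DESeq2. Of all genes, edgeR called 0% and DESeq2 0.0196%. Of the 52, 18 were higher with guide 2, or 34.6% against 50.3% of all genes, with a median of -0.08 against 0.00. At an unadjusted p under 0.05 there was 1 member, beside 2.86% of all genes. This was HIST1H3I, at 6.40 and 6.35 CPM with guide 1 and 3.83 and 4.72 CPM with guide 2, beside 4.42, 5.22 and 5.60 CPM in the controls. The difference was -0.58 on the log2 scale and did not pass adjustment. Among members of at least 50 CPM, the largest differences of guide 2 from guide 1 were -0.22 for H3F3A and -0.21 for HIST3H2A, and neither was called.

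Leaving out non-targeting replicate 1 raised the count of called genes to 53 for both guides, 59 for guide 1, 128 for guide 2 and 32 between guides, or 0.524%, 0.584%, 1.27% and 0.317% of genes tested. The count of called histone genes was 0 of 52 in each of these 4 fits. For both guides, 1 member was higher and 3 were lower at an unadjusted p under 0.05 there, beside 1057 of 10107 genes tested. The members' median was -0.08 against 0.00 over all genes. The smallest adjusted p among members there was 0.177, at H3F3A with guide 2. Several uncalled values moved by more than 1.5 times or turned for both guides. H3F3A differed by -0.16 in place of -0.04, H2AFX by -0.31 in place of -0.15, HIST1H3H by -0.13 in place of -0.04 and H2AFJ by -0.11 in place of 0.00. HIST1H2AI differed by -0.31, HIST1H2BC by -0.22 and HIST1H1E by -0.24, each further below 0 than with that library. Others came nearer to 0: HIST1H2AC at -0.06 in place of -0.14, H3F3B at -0.02 in place of -0.05 and H2AFZ at -0.04 in place of -0.07. HIST1H4B fell to 0.45 from 0.69, while HIST1H3D rose to 0.14 from 0.08. H2AFJ, H2AFV, H2AFY, HIST1H1C, HIST1H2AG, HIST1H2BJ, HIST1H2BK, HIST1H2BN, HIST1H3I, HIST1H4H and HIST3H2A turned in sign, all of them uncalled.

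Genes that make and carry histones were examined as lists. Of 14 genes of histone message transcription, processing and export, 13 were in the table and tested, 0 were called, and their median was 0.00 for both guides. SLBP had 17.8, 14.1 and 10.4 CPM in the controls and 9.25 to 13.7 CPM in the 4 guide libraries, which overlapped. Its log2 fold change was -0.38 (SE 0.18), and -0.19 without non-targeting replicate 1. CSTF2, of the cleavage complex, differed by 0.27, CPSF3, the endonuclease that cuts histone messages, by -0.17, and ERI1, an exonuclease that trims them, by -0.23. ERI1 stood at 156 CPM in non-targeting replicate 1 and at 89.3 and 90.5 CPM in the other controls, and its difference was 0.09 without that library. NPAT, the coactivator of the clustered genes, differed by 0.00 (SE 0.14) and is given outside the naming rule. Of 22 histone chaperones and carriers 21 were tested and 0 called, with 15 negative and a median of -0.08. ASF1A and ASF1B, chaperones of H3 and H4, differed by -0.22 and -0.28, NAP1L1, which binds H2A and H2B, by -0.18, and ANP32E, which removes H2A.Z, by -0.42. ANP32E stood at 83.2 CPM in non-targeting replicate 1 and at 33.7 and 36.2 CPM in the other controls, and ASF1A at 199 CPM there and at 122 and 126 CPM in the others. Without that library their differences were 0.13 and 0.04.

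Genes of DNA replication were given beside the clustered genes, which are active in the same phase. All 20 of the list were tested, 0 were called, and 14 had negative values with a median of -0.09. RRM2, a subunit of the enzyme that makes deoxynucleotides, had 86.9, 79.1 and 77.6 CPM in the controls and 62.3 to 71.02 CPM in the guide libraries. Its log2 fold change was -0.31 (SE 0.10), which did not pass. TYMS differed by -0.50, MCM4 by -0.30 and RRM1 by -0.19, none of them called. Non-targeting replicate 1 was the highest control for RRM2, TYMS, MCM4 and RRM1. It stood at 15.0 CPM for TYMS, against 11.6 and 12.1 CPM in the other controls. For MCM4 it stood at 39.3 CPM against 35.0 and 34.6 CPM, and for RRM1 at 53.0 CPM against 44.9 and 45.6 CPM. These 4 genes were named for the smallest unadjusted p of the list in this comparison, and in each every guide library was below every control. That pattern was found in 4 of the 20 list genes, in 0 of the 52 tested histone genes and in 2.37% of all genes tested. The histone count is near the background. At an unadjusted p under 0.05 (edgeR), 3 of the 20 list genes were lower and 0 higher. The list was not tested as a set.

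Promoters were compared because repression by CRISPR interference can act there and because clustered genes often share them. RefSeq promoters (GRCh38.p14) were matched to 75 members by symbol or synonym. A guide's last 12 bases followed by NGG, the PAM, were searched on both strands of the 300-base windows. There was no match in the 75 member promoters or in any of 35116 promoters, which says only that these letters are not in these windows. The guides are shown with those 12 bases in capitals.
non-targeting: atcgcgaggACCCGTTCCGCC
guide 1: gtcgtgctGCAGGTGAAGTG
guide 2: ccatccttCAGAGTAAACAG

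Motifs of the 250 bases upstream of the start were counted on both strands. CCAAT was found in 51 of 61 clustered promoters, or 83.6%, against 32.0% of all promoters. It was in all 6 H1, 16 H2A, 13 H2B and 13 H3 promoters but in 3 of 13 H4 promoters. TATAAA was found in 41 of 61, or 67.2%, against 10.7%. ATTTGCAT, the octamer bound by OCT1, was found in 11 of 16 H2A and 9 of 13 H2B promoters, in 1 of 13 H3 promoters and in none of the H1 and H4 promoters, against 1.63% of all promoters. Of 14 replacement promoters, 11 held CCAAT, 4 held TATAAA and 1 held the octamer. These counts are per gene and not per separate stretch of DNA. Divergent pairs such as HIST1H2AG with HIST1H2BJ and HIST2H2AC with HIST2H2BE have nearly the same window, so their motifs were counted for both genes. The 1 H3 promoter with the octamer, that of HIST1H3D, is the same window as that of the H2A gene HIST1H2AD. A match is a description of letters, not of a bound site.

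The upstream regions of 3 genes are printed in the sense of the gene with the 3 motifs in capitals: the most abundant clustered gene, a divergent pair that shares its promoter, and the most abundant replacement variant. HIST1H2AG and HIST1H2BJ, on opposite strands, use nearly the same stretch, and their log2 fold changes were -0.07 and 0.02.
HIST1H1C, chr6:26056471-26056720, minus strand: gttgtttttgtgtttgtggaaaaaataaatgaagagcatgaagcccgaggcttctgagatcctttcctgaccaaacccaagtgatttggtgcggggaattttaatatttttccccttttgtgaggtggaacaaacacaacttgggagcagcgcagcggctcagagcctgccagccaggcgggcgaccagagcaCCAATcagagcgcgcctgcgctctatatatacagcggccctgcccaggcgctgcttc
HIST1H2AG, chr6:27132793-27133042, plus strand: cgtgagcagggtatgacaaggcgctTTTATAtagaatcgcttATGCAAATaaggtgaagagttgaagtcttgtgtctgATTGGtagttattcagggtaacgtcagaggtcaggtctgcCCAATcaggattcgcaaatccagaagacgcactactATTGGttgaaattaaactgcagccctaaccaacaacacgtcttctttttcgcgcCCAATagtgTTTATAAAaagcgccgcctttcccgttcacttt
H3F3B, chr17:75779780-75780029, minus strand: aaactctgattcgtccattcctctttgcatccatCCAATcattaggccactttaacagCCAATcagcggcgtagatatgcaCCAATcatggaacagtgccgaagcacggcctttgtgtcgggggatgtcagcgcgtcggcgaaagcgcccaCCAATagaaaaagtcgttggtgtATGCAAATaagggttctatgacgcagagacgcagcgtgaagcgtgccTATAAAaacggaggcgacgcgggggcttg
HIST1H1C held CCAAT and neither of the other motifs. The shared region of HIST1H2AG and HIST1H2BJ, and that of H3F3B, held all 3.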

How the data were processed

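RNA of 7 HUDEP-2 libraries was sequenced. Raw counts of reads were deposited by the authors as 1 table of gene symbols with a column for each library, per the file header. The aligner STAR and the build GRCh37 (hg19) appear in the submitters' processing notes. STAR's version, the counter, its annotation, its strand setting and its handling of multiply aligned reads are not stated there. Library totals were 9780800 to 11350113 counts, without molecular identifiers, so bounds from counts cover counting error only.

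The tests used edgeR 4.0.16 (R 4.3.3). Its filterByExpr, at a minimum count of 10, kept 10212 genes. After TMM scaling, all 7 libraries entered 1 quasi-likelihood fit by group (4 residual degrees of freedom, biological coefficient of variation 12.5%). Tests were two-sided, with Benjamini-Hochberg adjustment over all genes and a threshold of 0.05. Standard errors and 95% intervals came from that fit. The script was tested on simulated counts. Alternatives were DESeq2 1.42.0, other scalings, no filter, a replicate block and leaving out each library.

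Named members were those tested with a mean of at least 5 CPM, 5 scarcer ones by smallest unadjusted p, and untested ones with 10 counts in a library; from each pathway list, up to 4 by unadjusted p. Members and lists were chosen with earlier results of these data known. CASP8AP2, of the processing list, was not analysed here. Gene models and chromosomes are from GENCODE v29 (GRCh38) and promoters from RefSeq (GRCh38.p14). They describe sequence only and were not joined to the authors' hg19 alignments.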

Additional observations from a re-analysis of the deposited data

How the results depend on the processing

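The count of called histone genes was 0 in all 4 comparisons under all 12 alternatives, including the replicate block (0 members called, smallest adjusted p = 0.995 for both guides), and leaving out each library in turn gave 0 to 0. Counts over all genes moved more: DESeq2 called 4, 6, 3 and 2 genes for both guides, guide 1, guide 2 and between guides, and the fit without a filter 8, 19, 4 and 2, against 2, 3, 1 and 0. With the block these were 1, 2, 1 and 1. The 3 pathway lists had 0 calls for both guides in each of these fits. Among the 31 named histone genes tested, the sign of an uncalled log2 fold change turned under at least 1 alternative in 14 for both guides, 14 for guide 1, 12 for guide 2 and 18 between guides. The labels do not pair the replicate numbers, and same-numbered libraries did not deviate together (correlations of -0.187 to 0.028 across genes). Differently numbered libraries gave correlations of -0.0856 to 0.187. In a guide group of 2 libraries the deviations are mirror images, so these 2 ranges are not independent. A batch shared across numbers was not tested. Differences in summed levels moved by less than the within-group SD under every alternative, with the sign of the replacement variants turning without non-targeting replicate 1 (1.96 CPM). Members under 5 CPM are limited by depth, and near-identical copies by counting.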
